A study of Mus musculus with 2 samples.

Results

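The melanocyte pigment genes Dct, Tyrp1, Tyr, Pmel, Mlana and Mitf were followed in 2 sections of mouse skin. They are the 6 of the 19465 genes of the count tables that carry these symbols. They were named by symbol and not by a cut on measured values, although earlier results of these data were known. The sections came from a study of keratinocyte S1pr2, a receptor for sphingosine 1-phosphate, in skin inflamed by imiquimod (IMQ). Each section was cut at 10 µm from fixed, paraffin-embedded back skin of 1 mouse, and profiled by spatial transcriptomics (Visium CytAssist). Molecules were counted by their unique molecular identifiers (UMIs) under spots of known position. The S1pr2fl/fl IMQ section (S1pr2 f/f in the labels) came from a mouse with floxed S1pr2, and the S1pr2fl/fl K14-Cre IMQ section from a mouse with the same floxed gene and Cre under the keratin 14 promoter, which is active in basal keratinocytes and in the outer follicle epithelium. Both mice received 62.5 mg of 5% IMQ cream daily for 7 days on depilated back skin at 8 weeks of age, and untreated skin was not analysed here.

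Melanin is made in melanosomes, organelles of the melanocyte. Tyr is the rate-limiting enzyme of its synthesis, Tyrp1 and Dct act after it, Pmel builds the fibrils on which melanin is laid down, Mlana is a melanosome membrane protein, and Mitf is the transcription factor that drives the other genes. In haired mouse skin most melanocytes live in the hair follicle, as stem cells in the bulge and hair germ and as pigment-producing cells in the bulb of a growing hair, and few are found in the epidermis between follicles. Mitf is also made by other cells, mast cells and macrophages among them, so the sum of pigment genes used here holds Dct, Tyrp1, Tyr, Pmel and Mlana, and Mitf is given beside it.

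The files were made on mm10, and positions below are those of RefSeq on the same build (GRCm38.p6). Dct lies on chr14:118012790-118052246, Tyrp1 on chr4:80834123-80851736, Tyr on chr7:87424771-87493512, Pmel on chr10:128695888-128720238, Mlana on chr19:29697541-29708447 and Mitf on chr6:97807002-98021360. The melanin enzymes, whose promoters are shown, are among the genes whose UMIs are compared for shared spots. The letters TCATGTG, the core of the M-box that Mitf is known to bind, were searched on both strands of the 250 bases before each start site. Dct, Tyrp1 and Tyr each held them within the same run of 10 letters, GTCATGTGCT, printed in capitals and written 5′ to 3′ on the strand of the gene:
Dct, minus strand, chr14:118052364-118052423: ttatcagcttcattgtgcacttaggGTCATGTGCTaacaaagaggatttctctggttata
Tyrp1, plus strand, chr4:80834140-80834199: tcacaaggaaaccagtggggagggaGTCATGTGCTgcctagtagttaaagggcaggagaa
Tyr, minus strand, chr7:87493513-87493560: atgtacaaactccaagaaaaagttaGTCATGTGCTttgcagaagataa
The first letter of TCATGTG lies 151 bases before the start site of Dct, 47 before that of Tyrp1 and 22 before that of Tyr. The start site searched for Tyrp1 lies downstream of the start of its gene span given above. The Tyrp1 letters printed here thus lie inside that span. The Dct window holds TCATGTG again on the other strand, 232 bases before the start, and the 3 windows of Mitf hold none. TCATGTG occurs in 3.25% of the 32851 windows of the RefSeq table and the run of 10 letters in 51 of them (0.155%). A match is a description of these letters, not of binding. Pmel and Mlana were not analysed for it.

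The S1pr2fl/fl section held 1282 spots and 5315351 UMIs, with a median of 3542.5 per spot, and the S1pr2fl/fl K14-Cre section held 981 spots and 2845826 UMIs, with a median of 2319. Levels are given as UMIs of the gene per 1000000 UMIs of the same spots (CPM), with exact Poisson 95% intervals. Because each genotype is 1 library, no test between genotypes exists and no p-value is given. All intervals cover counting error only, and since UMIs of a gene bunch in spots, they are too narrow. A lower level can come from fewer cells or from less RNA per cell, which cannot be told apart here. As a background, 1226 olfactory, vomeronasal, taste and trace amine receptor genes, which skin should hardly express, had on average 11.8 UMIs per gene in S1pr2fl/fl (2.21 CPM) and 17.0 in S1pr2fl/fl K14-Cre (5.98 CPM). The 2 sections shared 357 spot barcodes, which mark positions of a common array layout.

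All 6 genes were detected in both sections, and Dct and Mitf stood out from the background in each. Dct had 246 UMIs in S1pr2fl/fl, or 46.3 CPM (40.7 to 52.4), in 109 spots. It had 90 UMIs in S1pr2fl/fl K14-Cre, or 31.6 CPM (25.4 to 38.9), in 45 spots. The Dct count was above that of every receptor gene in S1pr2fl/fl and at their 99.8th percentile in S1pr2fl/fl K14-Cre. Mitf had 148 UMIs (27.8 CPM, 23.5 to 32.7) in 107 spots and 131 UMIs (46.0 CPM, 38.5 to 54.6) in 73 spots, at the 99.9th percentile in both.

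The other melanosome genes were sparse. Tyrp1 had 38 UMIs in S1pr2fl/fl and 22 in S1pr2fl/fl K14-Cre, and Tyr had 29 and 38. Pmel had 48 and 36, and Mlana had 41 and 24. In S1pr2fl/fl these counts lay between the 98.9th and 99.8th percentile of the receptor genes. In S1pr2fl/fl K14-Cre, Tyr lay at the 97.0th percentile and Pmel at the 95.8th, but Mlana at the 76.9th and Tyrp1 at the 71.0th, so the counts of these last genes are within the range of genes that skin should not express. There Tyr, Pmel and Mlana also came in bursts, with 6 Tyr UMIs, 5 Pmel UMIs and 4 Mlana UMIs in a single spot each, while 32.5% of the receptor genes had a spot with 4 or more UMIs, against 6.53% in S1pr2fl/fl.

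**Figure D1:**
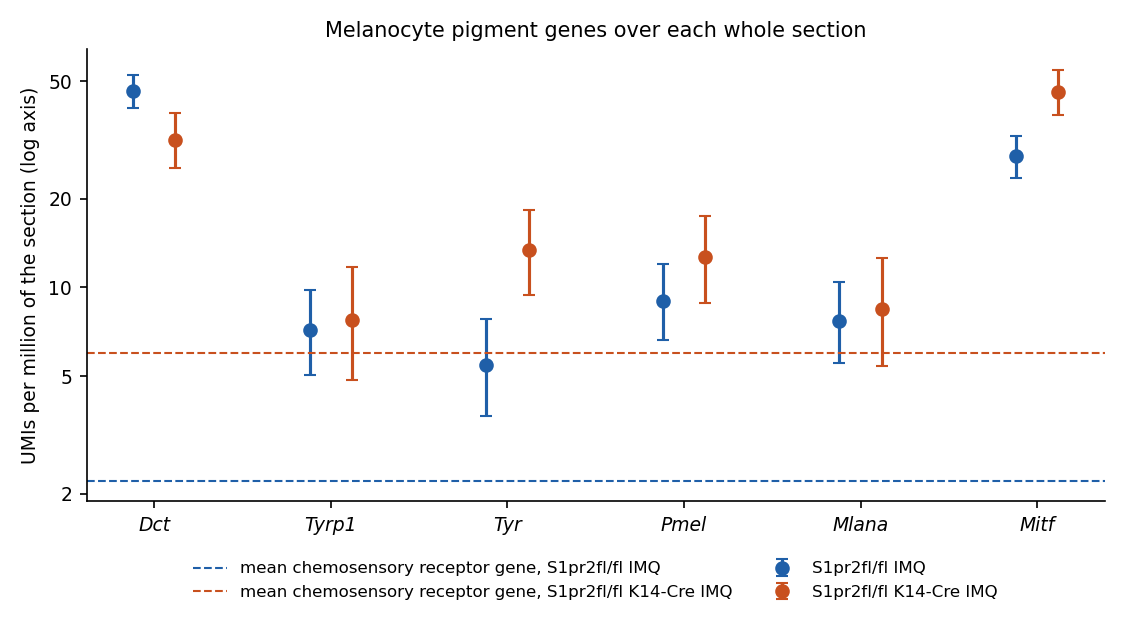
CPM of each gene over the whole section (log axis) with exact Poisson 95% intervals, for the S1pr2fl/fl IMQ section (blue) and the S1pr2fl/fl K14-Cre IMQ section (orange); dashed lines mark the mean chemosensory receptor gene at 2.21 and 5.98 CPM. In the K14-Cre section the lower intervals of Tyrp1 and Mlana reach below the background line, while Dct and Mitf lie well above it.

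Between the sections, the summed pigment genes were level, at 402 UMIs or 75.6 CPM (68.4 to 83.4) in S1pr2fl/fl and 210 UMIs or 73.8 CPM (64.1 to 84.5) in S1pr2fl/fl K14-Cre. The ratio of S1pr2fl/fl K14-Cre over S1pr2fl/fl was 0.976 (0.822 to 1.16), and it ran from 0.680 to 1.24 over the other scalings, so no direction is read from it. Dct was lower in S1pr2fl/fl K14-Cre, with a ratio of 0.683 (0.531 to 0.873) and 0.528 with the TMM factor, but 1.06 when each spot was thinned to 1000 UMIs. Tyr was higher with a ratio of 2.45 (1.47 to 4.11), and Mitf with 1.65 (1.30 to 2.11), under every scaling run. For Tyr the scalings ran from 1.89 with the TMM factor, under 2-fold, to 10.1 (1.40 to 443) when thinned. Tyrp1 (1.08), Pmel (1.40) and Mlana (1.09) had intervals that include 1, and with the mean receptor count taken off they were 0.355, 0.979 and 0.446, below 1.

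Only Tyr was 2-fold or more higher in S1pr2fl/fl K14-Cre, 1 of 6 genes, beside 28.5% of all genes with 20 or more UMIs. None of the 6 was 2-fold lower, where 4.59% of genes were. The median gene had a log2 ratio of 0.40 and the receptor genes a median ratio of 2.80, so on the log2 scale Tyr (1.29) and Mitf (0.73) lay above the median gene and Dct (−0.55) below it, while all 3 lay below the median receptor gene (1.49).

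The UMIs of the pigment genes shared spots in the S1pr2fl/fl section. Of its 1282 spots, 159 (12.4%) held at least 1 UMI of the summed pigment genes, and 42 of these held 2 or more different ones, 26.4% of the pigment spots with 55.5% of the pigment UMIs. Among the 42 spots, 24 held 2 of the genes, 12 held 3 and 6 held 4 or 5, and 28 were adjacent to another such spot. Dct and Pmel were found together in 18 spots, Dct and Mlana in 17, Dct and Tyrp1 in 15 and Dct and Tyr in 10. Of the spots with Tyrp1, 57.7% also held Dct, and of those with Pmel, 58.1%.

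The S1pr2fl/fl K14-Cre section, which was less deep, held fewer spots with several pigment genes. Of its 981 spots, 104 (10.6%) held a pigment UMI, but only 6 of them (5.77%) held 2 or more pigment genes, with 17.1% of the pigment UMIs, and 2 of the 6 were adjacent. No pair of pigment genes was found in more than 3 spots. These genes were in 13 to 45 spots each, too few for single pairs to be read. When spots were thinned to 1000 UMIs, pigment spots were 4.50% in S1pr2fl/fl and 5.40% in S1pr2fl/fl K14-Cre, so the share of pigment spots itself was not lower.

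To set sharing apart from depth, the CPM of each gene was taken in spots that hold another gene of the sum and in spots that do not. In S1pr2fl/fl, Dct was at 200.5 CPM (166 to 240) in the former and 26.9 (22.4 to 32.0) in the latter, a ratio of 7.45 (5.76 to 9.65). The ratio was 11.1 for Pmel (5.74 to 22.9), 9.17 for Tyrp1 (4.47 to 19.95), 7.71 for Tyr (3.41 to 18.6) and 6.19 for Mlana (3.19 to 12.3). Mitf had 1.11 (0.732 to 1.65) in pigment spots. Other views of Mitf gave more: Dct was 1.61 times higher (1.15 to 2.22) in spots with Mitf than without, and 21.4% of the spots with several pigment genes held Mitf against 7.80% of the spots without a pigment UMI, spots that also differ in depth. Pooled over the pigment genes (Mantel-Haenszel), the ratio was 7.86 (5.91 to 10.5), and 6.19 (4.54 to 8.42) when spots were compared only within the same expression region. It was 7.06 without the last of 4 segments of the section, which held 26 of the 42 spots with several pigment genes, and 10.5 without Dct.

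The pooled ratio of S1pr2fl/fl K14-Cre was 1.61 (0.977 to 2.67). Dct was at 78.1 CPM (47.7 to 121) in spots with another pigment gene and 27.0 (21.1 to 34.2) elsewhere, a ratio of 2.89 (1.66 to 4.805). Tyrp1 had 2.49 (0.798 to 6.70), Tyr 1.02 (0.310 to 2.62), Pmel 0.831 (0.213 to 2.34), Mlana 0.287 (0.00697 to 1.77) and Mitf 1.34 (0.833 to 2.09). Only the interval of Dct left out 1. The other views of Mitf did not give more here. Dct was 0.729 times as high (0.284 to 1.57) in spots with Mitf as without. Of the 6 spots with several pigment genes, 0 held Mitf, against 6.90% of the spots without a pigment UMI. The 6 spots with several pigment genes all lay in the first of 4 segments, so no ratio could be formed without it. Without the single spot with most pigment UMIs (7 of Dct, 1 of Tyrp1 and 2 of Pmel) the pooled ratio was 1.18. It was 1.09 without Dct, but 2.06 (1.18 to 3.61) without Tyr, 1.94 (1.10 to 3.42) without Pmel and 2.25 (1.34 to 3.76) without Mlana, so whether its interval leaves out 1 depends on the genes pooled.

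In S1pr2fl/fl 5 of the 6 genes had a ratio of at least 2, all but Mitf, beside 4.41% of all genes with 20 or more UMIs, for which pigment spots were set against spots without a pigment UMI. In S1pr2fl/fl K14-Cre 2 of the 6, Dct and Tyrp1, had such a ratio, where 10.5% of genes did. Sparse genes pass that fold more often: among receptor genes with at least 20 UMIs it was 17.6% of 131 and 19.5% of 431. Summed, the receptor genes were 1.20 times higher in the pigment spots of both sections. Pigment spots were also deeper, with medians of 6263 UMIs against 3236 in S1pr2fl/fl and 3355.5 against 2204 in S1pr2fl/fl K14-Cre. With spots thinned to 1000 UMIs, the pooled ratio was 7.31 (2.77 to 19.3) in S1pr2fl/fl and 1.82 (0.440 to 7.52) in S1pr2fl/fl K14-Cre. These intervals overlap. The difference of the pooled ratios between the sections was not tested.

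**Figure D2:**
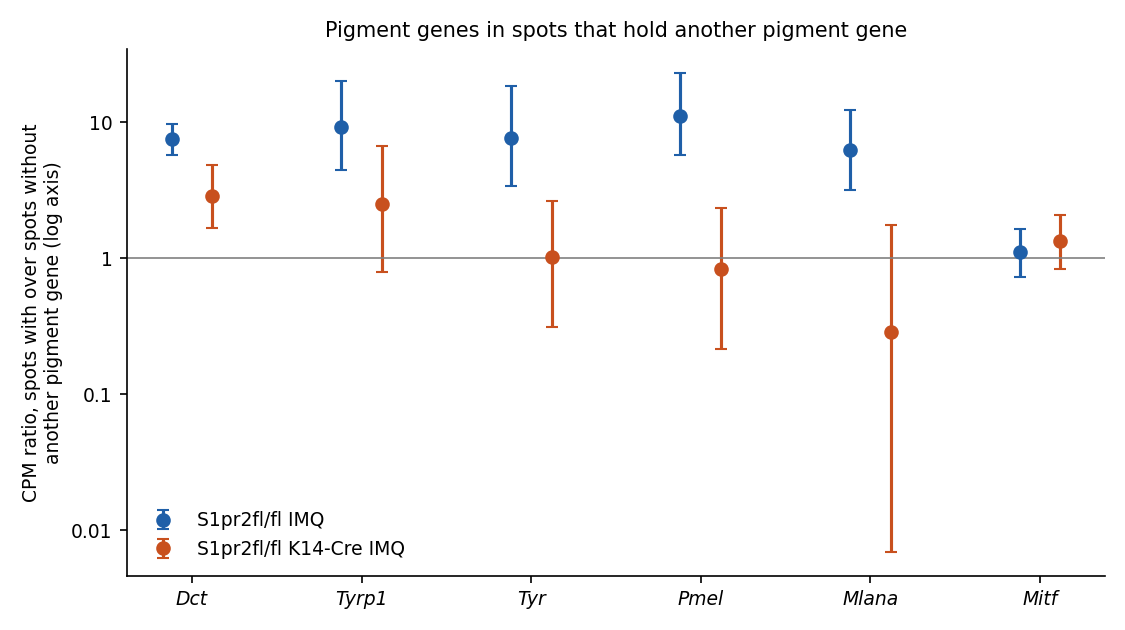
Ratio (log axis) of the CPM of each gene in spots that hold another of the summed pigment genes over the CPM in spots that do not, with 95% counting intervals. In the S1pr2fl/fl IMQ section (blue) the pigment genes lie between 6.19 and 11.1 and Mitf at 1.11; in the S1pr2fl/fl K14-Cre IMQ section (orange) only the interval of Dct leaves out 1.

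The fullest pigment spots showed the same genes side by side. In S1pr2fl/fl, a spot at the edge of the array (row 60, column 0) held 29 pigment UMIs, with 21 of Dct, 4 of Tyrp1, 3 of Pmel and 1 of Tyr. It was also the deepest spot of the section, with 30282 UMIs, and it alone made up 7.21% of the pigment UMIs. Next came 2 spots near the other end, in rows 32 and 33, with 13 and 12 pigment UMIs among 8480 and 6687 UMIs. Without the fullest spot the pooled ratio was 7.12. Along S1pr2fl/fl the pigment sum was 69.2, 48.7, 21.8 and 110 CPM in the 4 segments, and along S1pr2fl/fl K14-Cre it was 84.2, 62.3, 31.3 and 95.4. In both sections the ends were richer than the middle, although the segments of a section are not replicates.

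**Figure D3:**
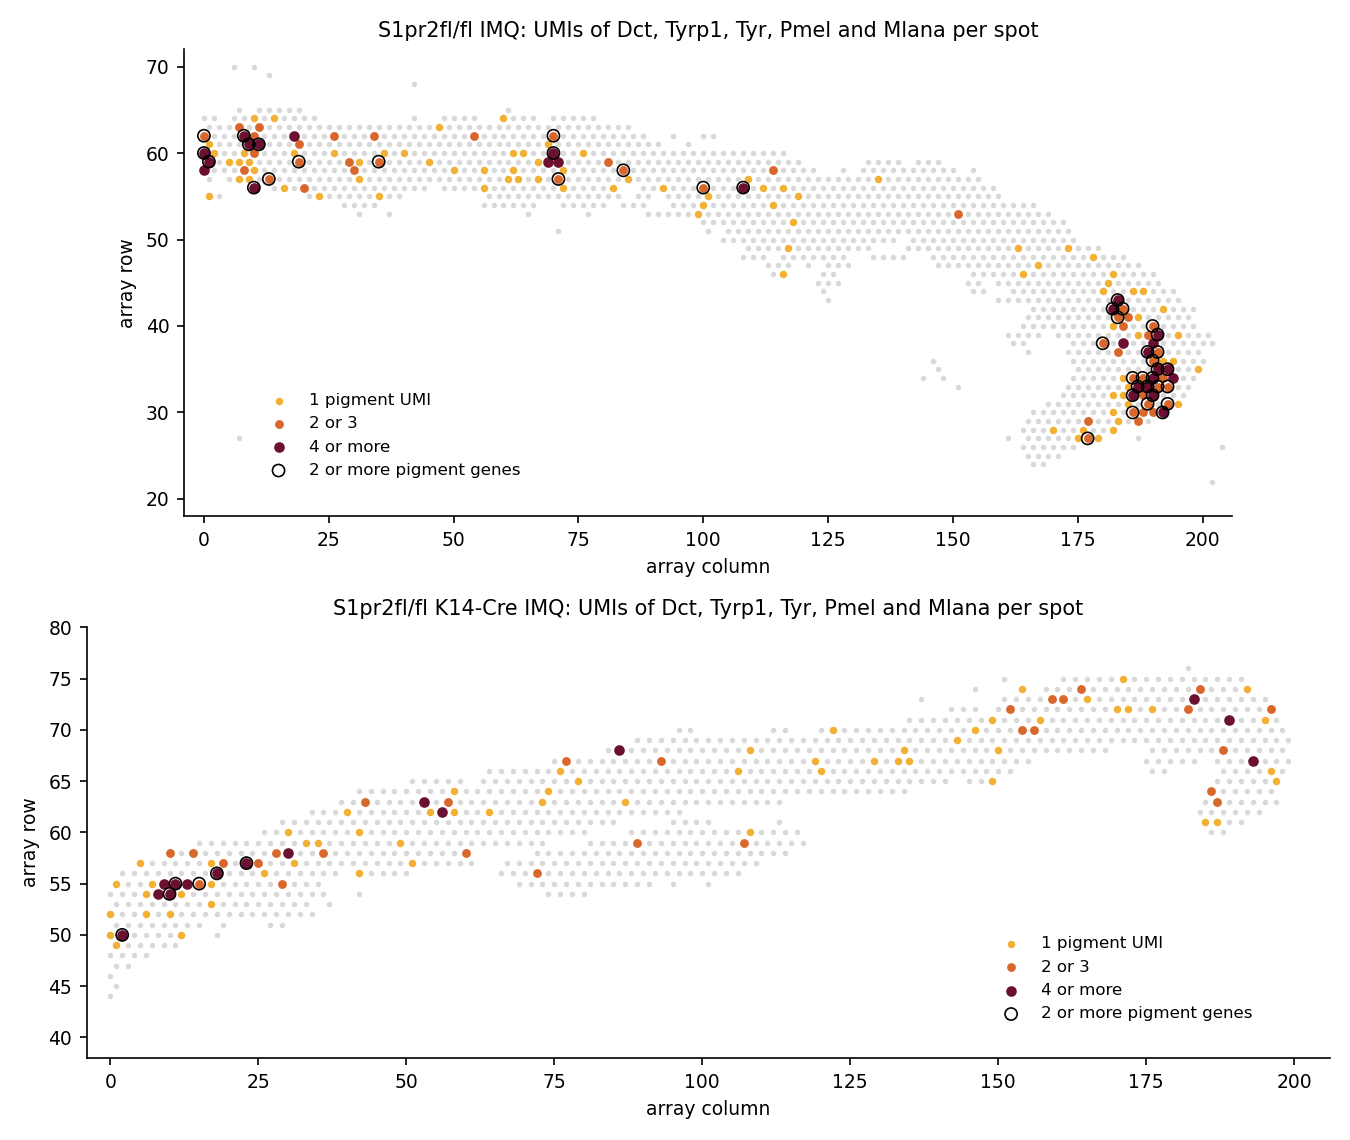
Array positions of the spots over tissue in both sections (grey), with spots that hold 1, 2 or 3, and 4 or more UMIs of Dct, Tyrp1, Tyr, Pmel and Mlana in colour and spots with 2 or more of these genes ringed; the skin surface faces upward and scattered spots far from the tissue fall outside the window. The 42 ringed spots of S1pr2fl/fl IMQ crowd at both ends, 26 of them in the last segment, and the 6 of S1pr2fl/fl K14-Cre IMQ lie in the first segment.

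The layer of the pigment spots was read from regions, groups of spots with similar expression, each described by the marker lists that had 50% or more of their genes enriched 2-fold in it. In S1pr2fl/fl the pigment sum was highest below the surface. It was 188 CPM (158 to 222) in a region of 149 spots rich in dermal and fat markers (8 of 9 dermal markers; leading genes Mup10, Mup17 and Marco). It was 89.1 CPM (75.6 to 104) in a region of 219 spots rich in sebaceous markers (7 of 10; leading genes Crygn, Awat1 and Krt77). These regions held 34.3% and 38.1% of the pigment UMIs, with 13.8% and 32.3% of all UMIs, and 18 and 17 of the 42 spots with several pigment genes. In the region rich in epidermal markers (12 of 15; leading genes Lce3a, Sprr2b and Hrnr), the sum was 8.73 CPM (3.77 to 17.2), 8 UMIs in 189 spots. The epidermis list was at 140197 CPM there, at 63507 CPM in the sebaceous region and at 66630 CPM in a region that no list described. That last region had 215 spots and a pigment sum of 67.7 CPM. The low sum of the region led by Lce3a thus does not speak for all of the epidermis.

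Single genes followed the sum in S1pr2fl/fl. Dct was at 117 CPM in the dermal region, 54.2 in the sebaceous region and 6.55 in the epidermal region. Pmel was at 23.2, 10.5 and 0 CPM and Tyrp1 at 19.1, 8.74 and 0, where the exact interval of a count of 0 among 916118 UMIs reaches 4.03 CPM. Tyr differed in that 51.7% of its UMIs lay in the sebaceous region, although these are 15 UMIs. Mitf was more even, with 42.3, 28.5 and 12.0 CPM.

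The highest region of S1pr2fl/fl K14-Cre was of another kind. It held 145 spots rich in follicle and sebaceous markers (7 of 13 shaft and matrix, 4 of 6 outer root sheath and bulge, 8 of 10 sebaceous; Krt15, Fa2h and Far2 among the 10 leading genes), with a pigment sum of 204 CPM (160 to 256) and 35.2% of the pigment UMIs. Of the Dct UMIs, 44 of 90 lay in it, or 121 CPM (88.2 to 163), against 4.93 to 8.97 CPM in the regions rich in muscle markers. Receptor genes Olfr1404 and Vmn1r27 were also among its leading genes, and 5 mean receptor genes came to 49.6 CPM there, so background was high in this region too. The regions rich in epidermal markers had 147 CPM (67.1 to 279; leading gene Alox8), 87.7 CPM (63.0 to 119; Sult2a6) and 66.9 CPM (38.2 to 109; Sprr2i), with 5 mean receptor genes at 43.1, 50.02 and 33.9 CPM. In the Alox8 region, 7 of the 9 pigment UMIs were Tyr and 0 were Dct, with an upper bound of 60.2 CPM.

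**Figure D4:**
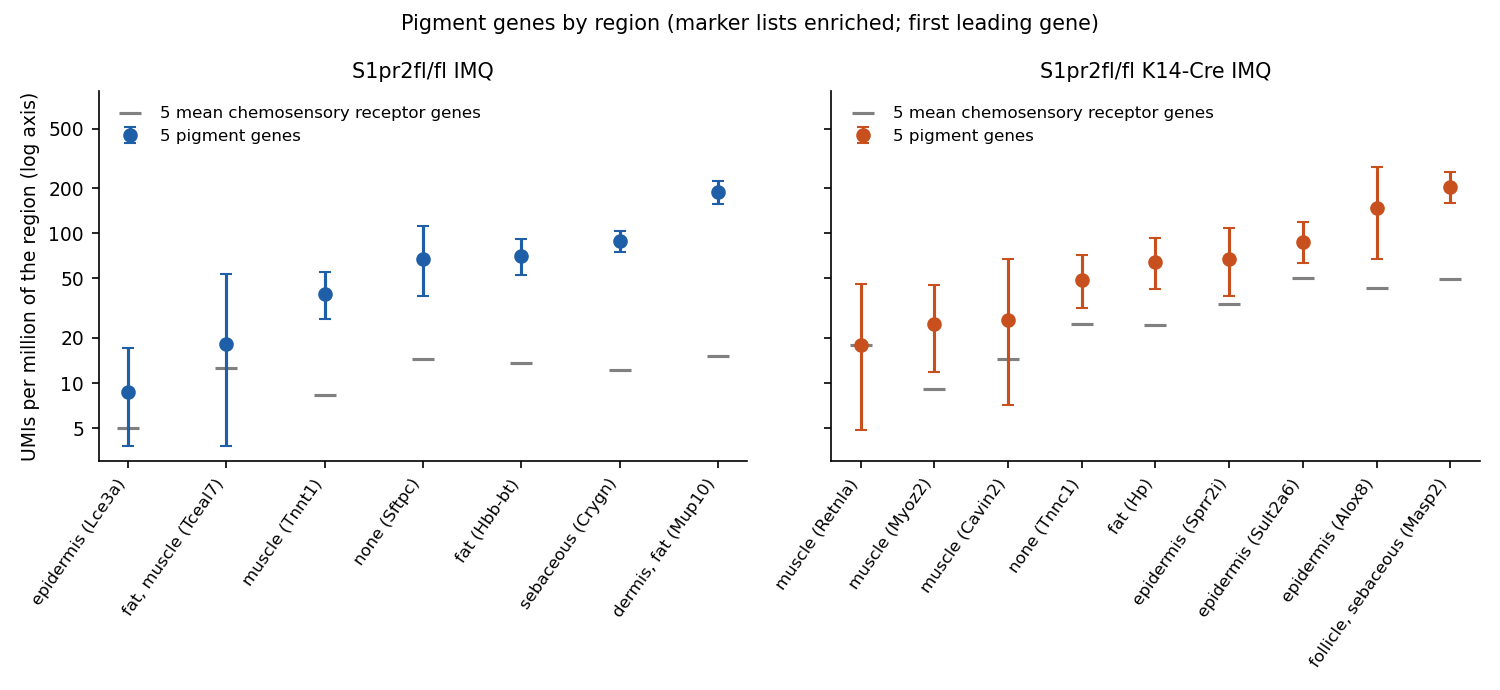
Pigment sum in CPM of each region (log axis) with exact Poisson 95% intervals, named by the marker lists enriched in it and, in brackets, its first leading gene; grey bars give 5 times the mean CPM of a chemosensory receptor gene in the same spots. The dermis and fat region (188 CPM) is highest in S1pr2fl/fl IMQ and the follicle and sebaceous region (204 CPM) in S1pr2fl/fl K14-Cre IMQ.

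Over the regions rich in epidermal or follicle markers against all other spots, the pigment sum was 0.0975 times as high in S1pr2fl/fl (0.0418 to 0.194) and 3.03 times as high in S1pr2fl/fl K14-Cre (2.26 to 4.10). All 6 genes were at least 2-fold lower in these regions of S1pr2fl/fl, where 46.8% of genes were. In S1pr2fl/fl K14-Cre 4 of the 6, Dct (3.95), Tyr (3.29), Tyrp1 (3.25) and Pmel (2.38) were at least 2-fold higher, where 30.2% of genes were, and Mlana (1.52) and Mitf (0.794) were not. The receptor genes summed had ratios of 0.407 and 2.40 in the same direction as the pigment genes. A ratio as low as that of the pigment sum was found for 10.2% of genes in S1pr2fl/fl, and one as high for 15.7% in S1pr2fl/fl K14-Cre. The contrast is not of the same layers in both sections, because the sebaceous region of S1pr2fl/fl is not counted with the follicle while the S1pr2fl/fl K14-Cre region holds both. With the sebaceous region added, S1pr2fl/fl had 0.680 (0.554 to 0.834).

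Position gave a view without clustering. The spots of each array column were ranked from the upper edge to the lower edge. The epidermis list was highest at the upper edge and the muscle list at the lower. Scattered spots far from the tissue were ranked too. The ranks were cut into 4 bands of equal range, not of equal size. The bands held 310, 243, 281 and 402 spots in S1pr2fl/fl and 257, 183, 225 and 309 in S1pr2fl/fl K14-Cre. In S1pr2fl/fl the pigment sum was 19.2 CPM (12.6 to 28.2) in the uppermost band, 75.0 in the next, 124 (105 to 146) in the following one and 87.9 in the lowest. For S1pr2fl/fl K14-Cre it was 75.1 CPM (55.4 to 99.5), 153 (122 to 189), 77.7 and 25.5 (16.5 to 37.6). Dct alone gave 10.4, 49.7, 79.4 and 49.6 CPM in S1pr2fl/fl and 18.8, 77.5, 46.3 and 4.07 in S1pr2fl/fl K14-Cre. Dct was thus lower in the uppermost band than in the band below it in both sections. Its highest value was in the second band from the upper edge in S1pr2fl/fl K14-Cre and in the third in S1pr2fl/fl. Mitf had a flatter course, from 19.97 to 33.0 CPM and from 37.5 to 57.7 CPM. The S1pr2fl/fl tissue bends down at its last columns, where most of its spots with several pigment genes lie. Rank from the edge is thus a poor guide to depth in the skin there.

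Of the follicle lists, that of the outer root sheath and bulge had the highest ratio in pigment spots of both sections. Its 6 genes, which include the bulge keratin Krt15 and the hair stem cell factors Lhx2 and Sox9, together had 746 CPM in the pigment spots of S1pr2fl/fl and 372 in the others, a ratio of 2.01 (1.84 to 2.18), and 523 against 248 CPM in S1pr2fl/fl K14-Cre, a ratio of 2.11 (1.80 to 2.46). Within regions the ratios were 1.69 (1.54 to 1.84) and 1.24 (1.06 to 1.45). In spots with 2 or more pigment genes they were 2.29 and 4.18. Among the list's genes with enough UMIs, 3 of 6 in S1pr2fl/fl and 2 of 5 in S1pr2fl/fl K14-Cre reached a ratio of 2. Of all genes with 20 or more UMIs, 4.41% and 10.5% did, and of such receptor genes 17.6% and 19.5%. Krt15 had the most UMIs of the list, 1676 and 543. Its ratio was 1.98 (1.79 to 2.19) and 2.44 (2.02 to 2.94), and Lhx2 had 3.47 (2.55 to 4.71) in S1pr2fl/fl. Tbx1 had 1.69 (1.002 to 2.76) in S1pr2fl/fl K14-Cre. Sox9, which is also made outside the bulge, had 1.25 in S1pr2fl/fl and 1.24 in S1pr2fl/fl K14-Cre, with intervals that include 1. By region of S1pr2fl/fl, the outer root sheath and bulge list was not highest where the pigment sum was. The list was at 438 CPM in the dermal region and 650 in the sebaceous region. It was at 698 CPM in the region rich in fat markers alone (leading gene Hbb-bt), where the pigment sum was 70.6 CPM.

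Hair shaft and matrix genes, the genes of the bulb that makes the hair, were not clearly higher in spots with at least 1 pigment UMI. Their ratio was 1.19 (0.958 to 1.48) in S1pr2fl/fl and 1.15 (0.920 to 1.43) in S1pr2fl/fl K14-Cre, and 6 and 5 of the 13 measured genes were above the 95th percentile of receptor genes. Foxn1, the highest of them, had 0.989 and 1.37. In spots with at least 2 pigment UMIs the list had 1.52 (1.18 to 1.94) in S1pr2fl/fl and 1.03 (0.743 to 1.40) in S1pr2fl/fl K14-Cre. By region of S1pr2fl/fl the list was at 89.5 CPM in the epidermal, 85.9 in the dermal and 118 in the sebaceous region. It thus does not single out the bulb. In S1pr2fl/fl, Msx2 had 0.761 (0.345 to 1.52) and Hoxc13 2.59 (1.28 to 5.08). In S1pr2fl/fl K14-Cre, Msx2 had 1.78 (1.02 to 2.98) and Krt36 0.633 (0.223 to 1.47). The inner root sheath and companion layer list had ratios of 1.25 (1.10 to 1.42) and 1.60 (1.30 to 1.956), and the dermal papilla list 1.51 (1.22 to 1.85) and 1.48 (1.12 to 1.92). Within regions the S1pr2fl/fl K14-Cre values were 1.13 (0.924 to 1.39) and 1.11 (0.853 to 1.45), with intervals that include 1. The inner root sheath list of S1pr2fl/fl had 1.04 when adjacent spots were added and 1.10 (0.868 to 1.37) in spots with 2 or more pigment genes. Of its 10 measured genes, 4 in S1pr2fl/fl and 3 in S1pr2fl/fl K14-Cre were above the 95th percentile of receptor genes. Of the 7 papilla genes, 4 and 2 were. Gata3, with most UMIs of the inner root sheath list in S1pr2fl/fl, had 1.08 (0.889 to 1.31) there and 1.87 (1.27 to 2.69) in S1pr2fl/fl K14-Cre. Of the papilla list in S1pr2fl/fl, Crabp1 had 1.51 (1.13 to 2.00), Sox18 1.08 (0.642 to 1.75) and Wif1, with 39 UMIs, 3.33 (1.67 to 6.56).

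For sebaceous genes the link depended on the view. The list, with the lipid enzymes Scd1, Far2 and Awat1, had 2125 CPM in pigment spots and 1937 in the others of S1pr2fl/fl, a ratio of 1.10 (1.05 to 1.15), and 1900 against 1425 CPM in S1pr2fl/fl K14-Cre, a ratio of 1.33 (1.23 to 1.44). Within regions both ratios were below 1, at 0.905 (0.864 to 0.948) and 0.954 (0.881 to 1.03), and without the fullest pigment spot S1pr2fl/fl had 1.00. Ranked from low to high sebaceous list and cut into 4 equal groups, the spots had 37.7, 68.5, 88.5 and 84.8 CPM of the pigment sum in S1pr2fl/fl and 45.9, 34.1, 98.0 and 124 in S1pr2fl/fl K14-Cre. The lowest groups of S1pr2fl/fl K14-Cre share spots with no UMI of the list, so their order is arbitrary. The richest group by the outer root sheath and bulge list had 148 CPM in S1pr2fl/fl and 138 in S1pr2fl/fl K14-Cre, with 253 of 402 and 112 of 210 pigment UMIs. By the dermis list the richest group had 160 CPM in S1pr2fl/fl, against 84.8 in the next, and 92.9 in S1pr2fl/fl K14-Cre.

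Spots with the sebaceous enzyme gene Scd1, 691 in S1pr2fl/fl and 504 in S1pr2fl/fl K14-Cre, had a pigment sum 2.55 times (1.91 to 3.45) and 1.66 times (1.22 to 2.27) that of the other spots. Dct had 3.02 (2.05 to 4.62) and 4.76 (2.52 to 9.92). Scd1 spots were deeper, with medians of 5111 UMIs against 1400 and 2735 against 1943.5. Spots with Awat1, another sebaceous gene, had a pigment sum ratio of 1.37 (1.10 to 1.69) and 2.00 (1.27 to 3.03), and spots with Mc5r 0.79996 (0.433 to 1.36) and 1.85 (0.672 to 4.11). Spots with Hoxc13 of the hair shaft had 2.10 (1.41 to 3.01) and 0.381 (0.0779 to 1.13). The ratio in Scd1 spots of S1pr2fl/fl was thus close to the 2.57 (2.08 to 3.18) of spots with Krt15. Scd1 was found in 691 of 1236 and 504 of 974 spots, so its spots do not single out the gland. In S1pr2fl/fl K14-Cre the sebaceous list, in which Scd1 had the most UMIs, was at 2256 CPM in the region rich in fat markers. It was at 4075 CPM in the follicle and sebaceous region.

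**Figure D5:**
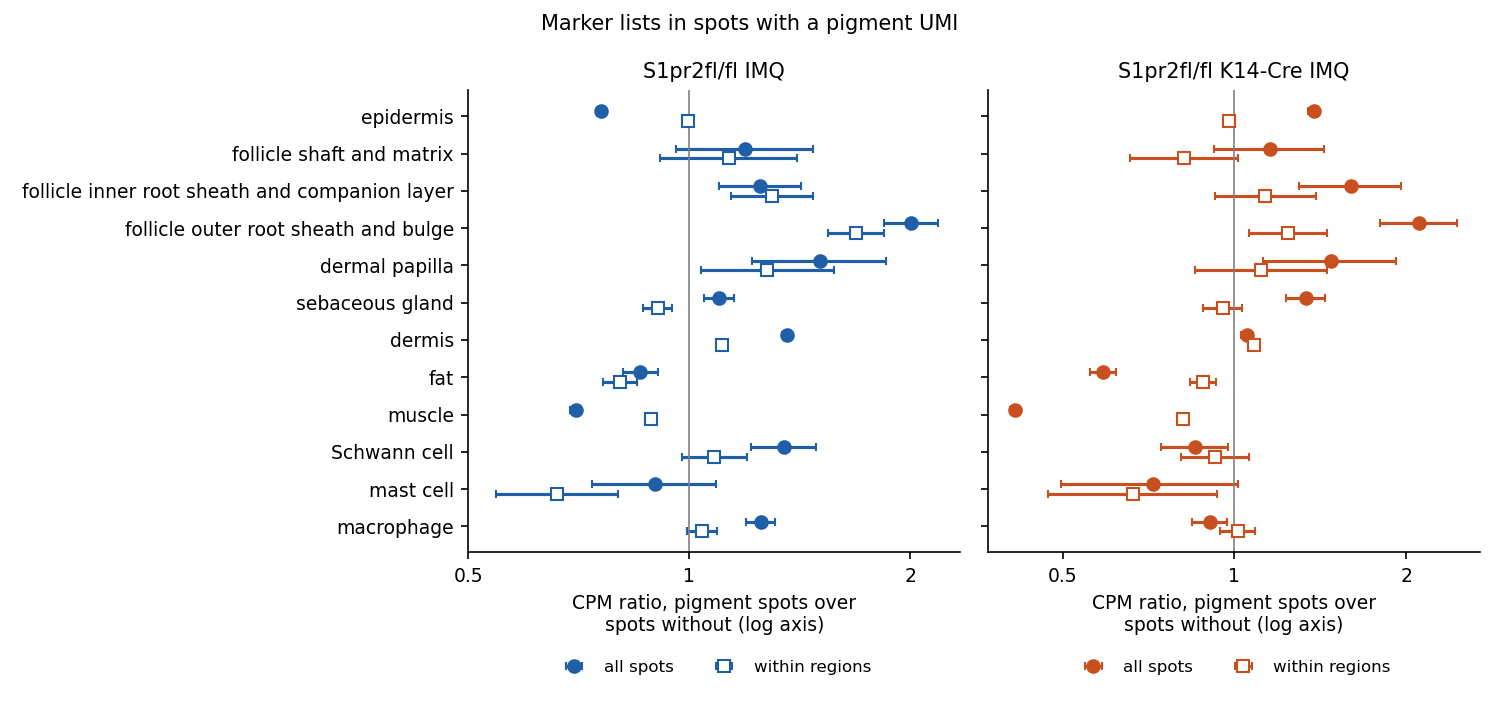
Ratio (log axis) of the CPM of each marker list in spots with a pigment UMI over spots without one, over all spots (filled) and within regions (open), with 95% counting intervals. The outer root sheath and bulge list lies farthest to the right in both sections, at 2.01 and 2.11 over all spots, and the sebaceous list drops below 1 within regions.

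Seen from the bulge genes, Dct was higher in Lhx2 spots of both sections. In S1pr2fl/fl, 95 spots held Lhx2, a factor of hair follicle stem cells, and 28 of them also held Dct. Dct was at 138 CPM in spots with Lhx2 and 32.5 in spots without, a ratio of 4.25 (3.25 to 5.52), and 3.47 without the fullest pigment spot. Only 26 spots of S1pr2fl/fl K14-Cre held Lhx2, with 3.45% of all UMIs, and 7 of these held 25 of the 90 Dct UMIs. Dct was at 255 CPM there against 23.7 in the other spots, a ratio of 10.8 (6.50 to 17.3). It was 12.0 without the fullest pigment spot, but that spot held no Lhx2, so leaving it out could only raise the ratio. An Lhx2 spot held at most 7 Dct UMIs, and the ratio without single Lhx2 spots was not tested. A ratio as high as 10.8 was found for 0.232% of genes in S1pr2fl/fl K14-Cre, and one as high as 4.25 for 0.343% in S1pr2fl/fl. The Lhx2 spots, like the Krt15 spots below, were singled out after their values were seen. These shares thus cannot show how unusual Dct is. The link of these genes to pigment spots given above is the same link seen from the other side. Lhx2 spots were deeper, with medians of 7016 UMIs against 3415 in S1pr2fl/fl and 3471 against 2313.5 in S1pr2fl/fl K14-Cre.

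The other genes split by section. In S1pr2fl/fl the Lhx2 ratio was 4.83 for Tyrp1, 4.06 for Tyr, 3.98 for Pmel and 2.14 (0.936 to 4.48) for Mlana. Mitf had 1.10, and the interval of Mlana includes 1. By the ratio alone, 5 of the 6 genes were at least 2-fold higher with Lhx2, where 6.50% of genes were. In S1pr2fl/fl K14-Cre, 1 of the 6 was, where 18.2% of genes were. Tyrp1, Tyr and Pmel had 0 UMIs in the 26 Lhx2 spots, with upper bounds of the ratio at 5.11, 2.85 and 3.02, which overlap the S1pr2fl/fl intervals (from 2.37, 1.73 and 2.09 upward), so no difference between the sections is read from them. With Krt15, found in 372 and 166 spots, Dct had ratios of 2.71 (2.07 to 3.59) and 3.79 (2.45 to 5.87) and Pmel 4.32 (2.16 to 9.39) and 3.47 (1.70 to 7.06). With Krt15, 3 of the 6 genes (Dct, Tyrp1 and Pmel) were at least 2-fold higher in each section, where 4.06% and 11.5% of genes were. In S1pr2fl/fl K14-Cre, Tyrp1 had 2.40 (0.906 to 6.07) from 9 UMIs in 5 spots, an interval that includes 1. Mitf had 1.22 and 0.900. Krt15 spots were deeper too, with medians of 6050.5 UMIs against 2492.5 and 3077.5 against 2177.5, and held 43.8% and 22.4% of all UMIs. Such wide spread means that Krt15 spots do not single out the bulge. Spots with Sox9 had a pigment sum ratio of 2.58 (2.11 to 3.15) and 2.08 (1.41 to 2.995).

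Other genes of the melanocyte were mostly too sparse to place. Kit, the receptor for stem cell factor on melanocytes, mast cells and other cells, had 53 UMIs in S1pr2fl/fl and a ratio in pigment spots of 2.35 (1.28 to 4.22). Tspan10 had 2.47 (1.17 to 5.05) and Mlph, which links melanosomes to the motor Myo5a, 2.17 (1.04 to 4.35). Slc24a5, a melanosome exchanger, had 2.28 (0.934 to 5.28). The transcription factor Sox10 had 16 UMIs, 6 of them in pigment spots, and Pax3 had 24 with 3, a ratio of 0.555 (0.106 to 1.86). Gpnmb (1.64), Ednrb (1.53) and Myo5a (1.42) had intervals above 1 too, and Gpnmb is also a macrophage gene. Rab38 (1.07), Rab27a (1.18), Rab32 (0.962), Trpm1 (1.26) and Slc45a2 (1.49) had intervals that include 1, although the first 3 had 325, 262 and 151 UMIs. Gpr143 had 0 of its 7 UMIs in pigment spots. In S1pr2fl/fl, 4.41% of all genes and 17.6% of receptor genes with 20 or more UMIs had a ratio of at least 2.

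None of these genes had an interval above 1 in S1pr2fl/fl K14-Cre. Kit had 0.760 (0.195 to 2.16), Tspan10 1.42 and Mlph 1.90, and Ednrb lay below 1 at 0.640 (0.435 to 0.913). Slc45a2 had 0 of its 23 UMIs in pigment spots, a ratio of 0 (0 to 0.992), also below 1. Sox10 had 17 UMIs there, at the 54.6th percentile of receptor genes, and Pax3 had 9, at the 21.8th. Of the genes that differed most between the sections, Rab38 had 325 and 32 UMIs, a ratio of 0.184 (0.124 to 0.265), and Gpnmb 511 and 64, a ratio of 0.234 (0.177 to 0.304). Both are also made by cells other than melanocytes. The ligand genes Kitl, Edn3 and Pomc had ratios between the sections of 1.82, 2.13 and 3.41, beside a median of 2.80 for the receptor genes.

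Markers of other cells that can express pigment or Mitf genes were set beside the pigment spots. Schwann cell genes (7 of 7 above the 95th percentile of receptor genes in both sections) had a ratio of 1.35 (1.22 to 1.49) in S1pr2fl/fl, 1.08 within regions, and 0.853 in S1pr2fl/fl K14-Cre. Mast cell genes (5 and 4 of 7 above it) had 0.897 and 0.720, and within regions 0.660 (0.545 to 0.799) and 0.663 (0.471 to 0.934). Macrophage genes (7 of 8 in both) had 1.25 and 0.906, and within regions 1.04 and 1.01. In S1pr2fl/fl the dermal region, with the highest pigment CPM, also had the highest levels of all these lists. Mast cell genes were at 406 CPM there against 72.2 in the sebaceous region, macrophage genes at 3912 against 1182 and Schwann cell genes at 848 against 246. The mast cell genes Fcer1a and Mcpt4 were among its 10 leading genes. Mitf was also higher there, as given above, and the part of these cells in the Mitf and pigment counts was not tested.

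The genes most like the pigment sum, by the ratio of CPM in pigment spots over spots without, were few-count genes. Over the 1236 spots with at least 50 UMIs of S1pr2fl/fl they were Psg20 (18.4), Lrrn3 (7.17), E2f8 and Esp1 (6.31 each) and Bco2 (5.82). Psg20 owed its place to 15 UMIs in 1 spot, while Lrrn3 had UMIs in 14 pigment spots, with 24 UMIs there and 13 elsewhere. Over the 974 spots of S1pr2fl/fl K14-Cre they were Ropn1 (14.7), Cldn22 (10.6), Hmgb4 (9.12), Vsig4 (8.23) and Wee2 (8.07), in 5 to 7 pigment spots each. No gene was on both lists. With 5 genes taken from 14293 tested in S1pr2fl/fl and 15542 in S1pr2fl/fl K14-Cre, no difference between the sections is read from this.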

How the data were processed

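Per the labels, the files are Space Ranger 3.0.0 output on mm10. For each section the authors deposited a matrix of unnormalized UMI counts by gene and tissue spot, and the spot positions. Each genotype is 1 library, so values were set side by side without a test. The members and lists were chosen with earlier results of these data known.

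Section levels took all spots, and other values the spots with at least 50 UMIs (1236 and 974). A pigment spot has at least 1 UMI of Dct, Tyrp1, Tyr, Pmel or Mlana. Intervals (95%) are exact Poisson for CPM, conditional binomial for ratios and Mantel-Haenszel for pooled ratios; for sharing, the log width was multiplied by the square root of 2, as each shared spot enters from both sides. Regions are Leiden clusters (resolution 1, seed 0) over 2000 variable genes without the members and melanocyte lists, 20 components and 15 neighbours, made in Python 3.11.15 with scanpy 1.11.5 and igraph 0.11.9. The functions were tested on simulated data.

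The rule named the members, the melanocyte lists, the 3 genes with most UMIs of each follicle and sebaceous list per section, and the 5 genes per section with the highest ratio in pigment spots. Leading genes name regions. The spots of Lhx2, Krt15, Sox9, Scd1, Awat1, Mc5r and Hoxc13 were singled out after their values were seen. The same holds for the comparisons within regions, in spots with 2 or more pigment genes, with sebaceous regions added and without a segment. The other alternatives were a minimum of 500 UMIs, thinning to 1000 UMIs, connected groups of at least 20 spots, leaving out the fullest spot or a gene, TMM scaling (R 4.3.3, edgeR 4.0.16), receptor background taken off, Leiden resolution 0.5, upper against lower tissue by position, adjacent spots, and at least 2 pigment UMIs. Mc1r, Asip and some hair keratins were not analysed here. Promoters came from RefSeq for 4 of the 6 members.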

Additional observations from a re-analysis of the deposited data

Results flagged for a closer look

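The layer ratio of the pigment genes lay on opposite sides of 1 in the 2 sections. For regions rich in epidermal or follicle markers over the other spots it was 0.0975 in S1pr2fl/fl IMQ and 3.03 in S1pr2fl/fl K14-Cre IMQ. The contrast is not of the same layers. In S1pr2fl/fl it took only the epidermal region, and in S1pr2fl/fl K14-Cre also the follicle and sebaceous region. With its sebaceous region added, S1pr2fl/fl had 0.680. By position, Dct was lower in the uppermost band than in the next in both sections. The difference of the layer ratios was not tested, since each genotype is 1 section of 1 mouse. The part of the receptor background, which moved the same way (0.407 and 2.40), was not tested either.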

How the results depend on the processing

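Of 98 alternatives of the main results, 66 kept the value within its interval, 29 moved it outside and 3 turned a value whose interval left out 1 to the other side of 1. Of 72 for single genes and other lists, 59, 9 and 4 did. Values with intervals that include 1 also crossed it: the level at 1.24 and 1.16 and S1pr2fl/fl K14-Cre shaft and matrix at 0.219 and 0.815, all counted as moved. The causes were not tested. The level between the sections (0.976) was 0.754 with TMM scaling, 1.24 thinned, 0.680 with the receptor background taken off and 1.16 with Mitf added, and Dct turned to 1.06 thinned. Sharing in S1pr2fl/fl was 10.5 without Dct, and its layer ratio 0.438 for upper over lower tissue and 0.680 with the sebaceous region. Thinned, shaft and matrix had 2.33 in S1pr2fl/fl and 1.48 in S1pr2fl/fl K14-Cre, outer root sheath and bulge 1.81 and 3.86, and sebaceous genes 1.80 and papilla genes 0.536 in S1pr2fl/fl K14-Cre. With at least 2 pigment UMIs, shaft and matrix had 1.52 in S1pr2fl/fl, outer root sheath and bulge 2.57 and 2.84, and sebaceous genes 1.17 and 1.66. With 2 or more pigment genes, outer root sheath and bulge had 2.29 and 4.18, sebaceous genes 1.23 and 0.930, and in S1pr2fl/fl K14-Cre shaft and matrix 0.219, inner root sheath 0.968 and papilla 0.976. Within regions, outer root sheath and bulge had 1.69 and 1.24, sebaceous genes 0.905 and 0.954, and shaft and matrix 0.815 in S1pr2fl/fl K14-Cre. Without the segment richest in shared spots, outer root sheath and bulge had 1.84 and 2.60 and sebaceous genes 1.39 in S1pr2fl/fl. Outer root sheath and bulge had 1.64 with adjacent spots, and sebaceous genes 1.00 without the fullest spot, both in S1pr2fl/fl. No sharing ratio could be formed for S1pr2fl/fl K14-Cre without its first segment. No paired analysis was possible because each genotype is 1 section and the labels carry no replicate numbers. Depth limits Tyrp1, Tyr, Pmel and Mlana, with at most 48 UMIs each.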
